A study of Homo sapiens with 4 samples.

Results

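The human Argonaute genes AGO1 to AGO4 were followed at their poly(A) sites in DICER(ex5) cells. The line descends from HCT116 human colon cancer cells and carries a hypomorphic DICER. Regions were assigned to a gene by position, when start and end lay on the gene's strand inside a window on hg19. The windows were chromosome 1 plus strand 36348000 to 36396000 for AGO1, chromosome 8 minus strand 141540000 to 141647000 for AGO2, chromosome 1 plus strand 36396000 to 36523000 for AGO3 and chromosome 1 plus strand 36273000 to 36324000 for AGO4. Of the 31081 poly(A) regions of the table, 7 lay in these windows, 4 for AGO1 and 3 for AGO2. No row of the table used here lay in the window of AGO3 or of AGO4. The study read 4 libraries of this line, labelled as biological replicates of a single group, with no parental or other control. Nothing below therefore measures an effect of DICER. The labels give neither a day nor a batch and do not say whether the line is a single clone.

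Argonaute proteins hold a mature microRNA or siRNA and use it to find complementary sites in mRNA. Dicer, an endoribonuclease, makes the small RNAs that Argonautes load. All human Argonautes take part in microRNA silencing, in which the TNRC6 (GW182) proteins they bind recruit deadenylases. AGO2 is best known as the human Argonaute that cleaves a fully paired target. AGO1, AGO3 and AGO4 are neighbours on chromosome 1, and AGO2 lies alone on chromosome 8. The choice of poly(A) site sets the length of the 3′ end of an mRNA and with it which regulatory sites, microRNA sites included, the message carries.

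A read of this assay marks the junction of a transcript with its poly(A) tail. A count therefore does not scale with transcript length, and levels of different genes are set side by side as counts per 1000000 reads of the library (CPM). The libraries held 2163977 to 5713530 reads, and a single read was worth 0.175 CPM in library 3, the deepest, and 0.462 CPM in library 2, the shallowest. No region of the table was listed with fewer than 11 reads in whichever library had the most. A weaker site may therefore be missing, so a window without a region is not a measured 0 and no limit is given for it. Libraries 1 and 2 resembled each other, as did libraries 3 and 4: Pearson's r across regions of log2(CPM + 1) was 0.97 and 0.98 in these pairs and 0.84 to 0.87 in the others. These values describe the libraries, and regions are not independent replicates. In RNA from a bulk culture, a change in the cells that express a gene and a change in its RNA per cell cannot be told apart.

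AGO1, a microRNA-binding Argonaute, had 225, 72, 287 and 177 reads in libraries 1 to 4. Scaled to the library totals, its level was 43.2, 33.3, 50.2 and 44.4 CPM, or 42.8 ± 7.04 CPM (SD, n = 4). Library 2 was lowest and library 3 highest. The SD from read counting alone, over all 4 libraries, is 3.30 CPM. The SD between libraries was 8.62, 3.77, 6.11 and 8.52 CPM without library 1, 2, 3 and 4 in turn (n = 3 each). The exact Poisson intervals, which cover counting error only, ran from 26.0 to 41.9 CPM in library 2 and from 44.6 to 56.4 CPM in library 3, and did not overlap. The mean was 38.2 ± 7.00 CPM in libraries 1 and 2 and 47.3 ± 4.11 CPM in libraries 3 and 4 (SD, n = 2 each).

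AGO2, the slicing Argonaute, had 84, 47, 114 and 71 reads in its window in libraries 1 to 4. Its level was 16.1, 21.7, 20.0 and 17.8 CPM, or 18.9 ± 2.45 CPM (SD, n = 4), with a counting SD of 2.30 CPM. Library 1 was lowest and library 2, the lowest for AGO1, was highest. The Poisson intervals of all 4 libraries overlapped. The means were 18.9 ± 3.96 CPM in libraries 1 and 2 and 18.9 ± 1.51 CPM in libraries 3 and 4 (SD, n = 2 each).

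Within the windows, AGO1 was above AGO2 in 4 of 4 libraries, and the groups of values did not overlap. The AGO1 to AGO2 ratio of reads was 2.68 in library 1 (exact 95% interval 2.08 to 3.48), 1.53 in library 2 (1.05 to 2.26), 2.52 in library 3 (2.02 to 3.16) and 2.49 in library 4 (1.88 to 3.33). Its mean was 2.31 ± 0.522 (SD, n = 4). Library 2 stood below the other libraries, which lay close together, and it is also the shallowest library. Whether depth plays a part was not tested. On the log2(CPM + 1) scale AGO1 minus AGO2 was 1.13 ± 0.361 (SD, n = 4; exact two-sided sign-flip permutation p = 0.13, the smallest that 4 libraries can give). With AGO3 and AGO4 without regions, this was the only gene pair of 6 that could be compared. The order holds for the windows alone and turns when the regions just past the 3′ edge of the AGO2 window are added, as given further on.

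**Figure D1:**
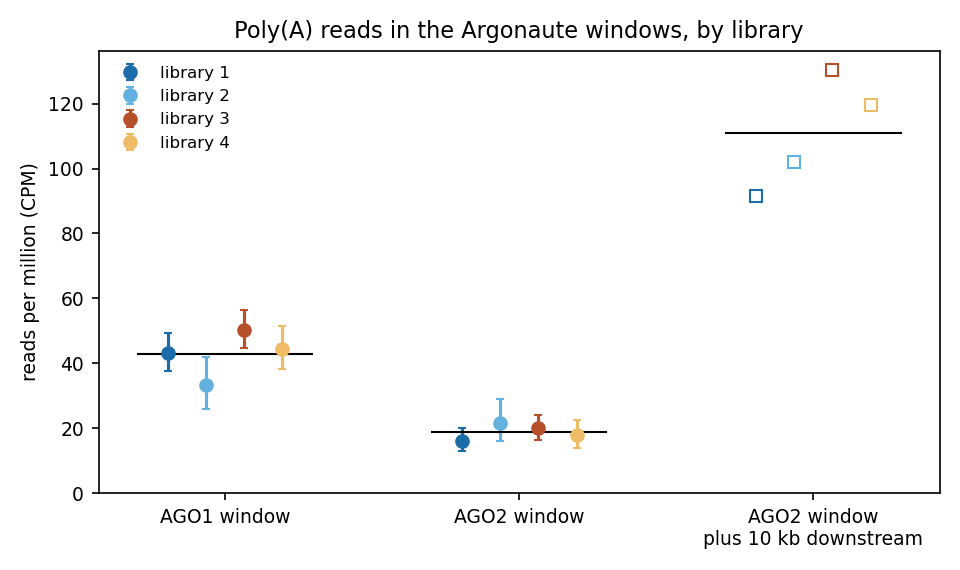
Reads scaled to the library total (CPM, y axis) in the AGO1 window, the AGO2 window and the AGO2 window lengthened by 10 kb at its 3′ edge, 1 point per library, with the mean as a horizontal line and exact 95% Poisson intervals on the 2 windows. AGO1 lies between 33.3 and 50.2 CPM, above the AGO2 window at 16.1 to 21.7 CPM, while the lengthened AGO2 window lies between 91.5 and 130 CPM.

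The 4 AGO1 regions, numbered from 5′ to 3′, lay within 7342 bases of each other. Which exon or untranslated region they fall in was not assigned, since no hg19 annotation was used here. Region 1, at 36387843 to 36387878 (36 bases wide), was the weakest, with 13, 8, 15 and 9 reads. Its level was 2.49, 3.70, 2.63 and 2.26 CPM, or 2.77 ± 0.637 CPM (SD, n = 4). Library 2 gave the highest level and libraries 1, 3 and 4 lay close together. Region 2, at 36388575 to 36388657 (83 bases wide), ended 779 bases further 3′. It had 29, 10, 27 and 16 reads, or 5.56, 4.62, 4.73 and 4.02 CPM, with a mean of 4.73 ± 0.637 CPM (SD, n = 4). Both stayed at or below 5.56 CPM in every library.

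Region 3 of AGO1, at 36389887 to 36389908 (22 bases wide), was the main end of the gene within the window. It ended 1251 bases past region 2 and had 128, 36, 173 and 101 reads. Its level was 24.6, 16.6, 30.3 and 25.3 CPM, or 24.2 ± 5.65 CPM (SD, n = 4), above each other region of AGO1 in every library. It took 56.9% of the window's reads in library 1 (95% Wilson interval 50.4% to 63.2%), 50.0% in library 2 (38.7% to 61.3%), 60.3% in library 3 (54.5% to 65.8%) and 57.1% in library 4 (49.7% to 64.1%). The mean share was 56.1% ± 4.33 (SD, n = 4), and the intervals of all libraries overlapped.

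Region 4, the most 3′ of AGO1, lay apart from the others. It ran from 36395187 to 36395220 (34 bases wide), 5312 bases past the end of region 3. Of 14648 pairs of neighbouring 3′ ends on a strand within 10 kb, 9.61% lay farther apart, and the median distance was 658 bases. Region 4 had 55, 18, 72 and 51 reads, or 10.6, 8.32, 12.6 and 12.8 CPM, with a mean of 11.1 ± 2.10 CPM (SD, n = 4). It was the next strongest after region 3 in every library. Its share was 24.4% (19.3% to 30.5%), 25.0% (16.4% to 36.1%), 25.1% (20.4% to 30.4%) and 28.8% (22.6% to 35.9%) in libraries 1 to 4, a mean of 25.8% ± 2.01 (SD, n = 4). The intervals of all libraries overlapped. The region lay 780 bases before the boundary at which the AGO1 window ends and the AGO3 window begins on the same strand, so its place in AGO1 rests on the window.

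Whether AGO1 had its main end at the 3′ side depended on how regions were joined. When regions of a strand within 5 kb were joined into a locus, regions 1 to 3 formed a locus and region 4 stood alone. In that locus the most 3′ region took 77.5% of the reads, against a median of 33.7% over the 1293 loci of the table with 3 regions and at least 100 reads. Of those loci, 89.2% had a lower value. Joined within 10 kb, all 4 regions made a locus whose most 3′ region took 25.8%, against a median of 22.5% over 583 loci with 4 regions. The strongest region was then region 3 of 4, and 57.6% of the locus's reads fell in it, against a median of 50.6% in those loci.

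The 3 AGO2 regions lay closer together, within 569 bases. Region 1, the most 5′, ran from 141541848 to 141541914 (67 bases wide) and was the strongest in every library. It had 57, 26, 70 and 41 reads, or 10.9, 12.0, 12.3 and 10.3 CPM, with a mean of 11.4 ± 0.921 CPM (SD, n = 4). Its SD relative to its mean was the smallest of the 7 regions, with counting error not set apart. It took 67.9% (57.3% to 76.9%), 55.3% (41.2% to 68.6%), 61.4% (52.2% to 69.8%) and 57.7% (46.2% to 68.5%) of the window's reads in libraries 1 to 4, a mean of 60.6% ± 5.46 (SD, n = 4). Region 1 of AGO2 and region 4 of AGO1 had close levels, 11.4 ± 0.921 against 11.1 ± 2.10 CPM (SD, n = 4), a difference within their spread.

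Region 2 of AGO2, at 141541758 to 141541780 (23 bases wide), ended only 90 bases past region 1. It had 12, 11, 30 and 17 reads, or 2.30, 5.08, 5.25 and 4.27 CPM, with a mean of 4.23 ± 1.35 CPM (SD, n = 4). Library 1 was low and the others lay together. Region 3, the most 3′ within the window, ran from 141541279 to 141541322 (44 bases wide), 479 bases further on. It had 15, 10, 14 and 13 reads, or 2.88, 4.62, 2.45 and 3.26 CPM, a mean of 3.30 ± 0.939 CPM (SD, n = 4). Its share was 17.4% ± 3.75 (SD, n = 4), from 12.3% (7.46% to 19.6%) in library 3 to 21.3% (12.0% to 34.9%) in library 2. Regions 2 and 3 overlapped in level across libraries. With ends within 100 bases merged, regions 1 and 2 became a single end with 82.6% ± 3.75 of the window's reads (SD, n = 4).

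**Figure D2:**
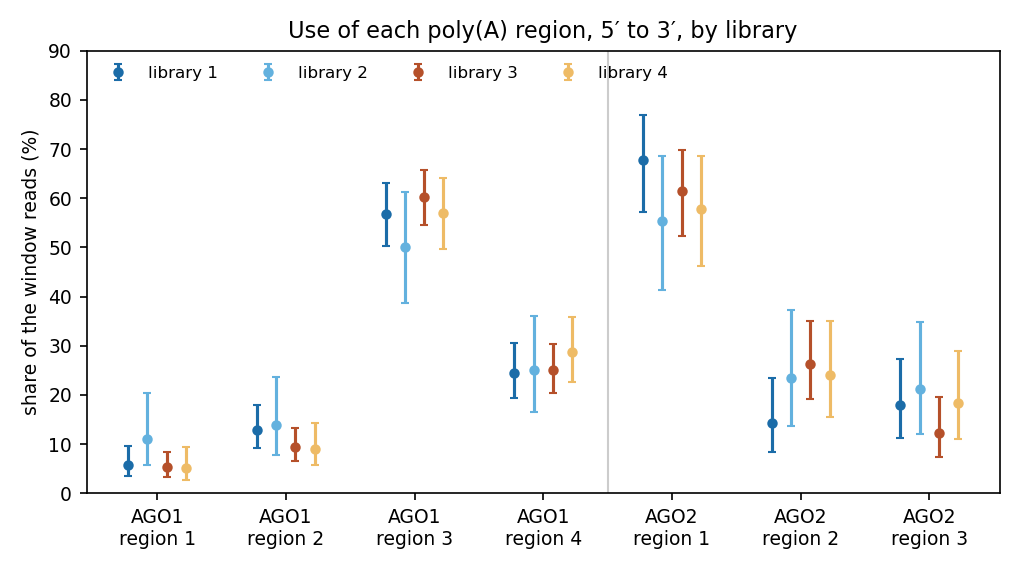
Share of the reads of the window (y axis, %) in each poly(A) region of AGO1 and AGO2, numbered 5′ to 3′ on the x axis, 1 point per library with 95% Wilson intervals. AGO1 had its largest share in region 3 (50.0% to 60.3%) and AGO2 in region 1 (55.3% to 67.9%), in every library.

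Within the windows the genes thus differed in where the strongest region lay, region 3 of 4 for AGO1 and region 1 of 3 for AGO2. Among the 1293 loci with 3 regions, the strongest was the most 5′ one at 24.2% and the most 3′ one at 43.0%. The most 3′ region of the AGO2 locus took 16.5% of its pooled reads, and 26.8% of those loci had a lower value. Joined within 10 kb, the AGO2 locus also took in regions past the window edge, described further on, and the result turned. Of its 8 regions 3 then passed, and the most 3′ of these was the strongest. It took 67.6% of the reads in the 3 passing regions, not of all reads of the locus. The median was 31.6% over 1386 loci, of which 80.5% had a lower value. By level, AGO1 region 3 was above 78.0% of all regions of the table and AGO1 region 4 and AGO2 region 1 above 64.5% and 65.0%. The other 4 regions were above 25.6% to 44.0%. All 7 regions were wider than 10 bases, and all 7 passed a minimum of 10 reads and 5% of their window.

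**Figure D3:**
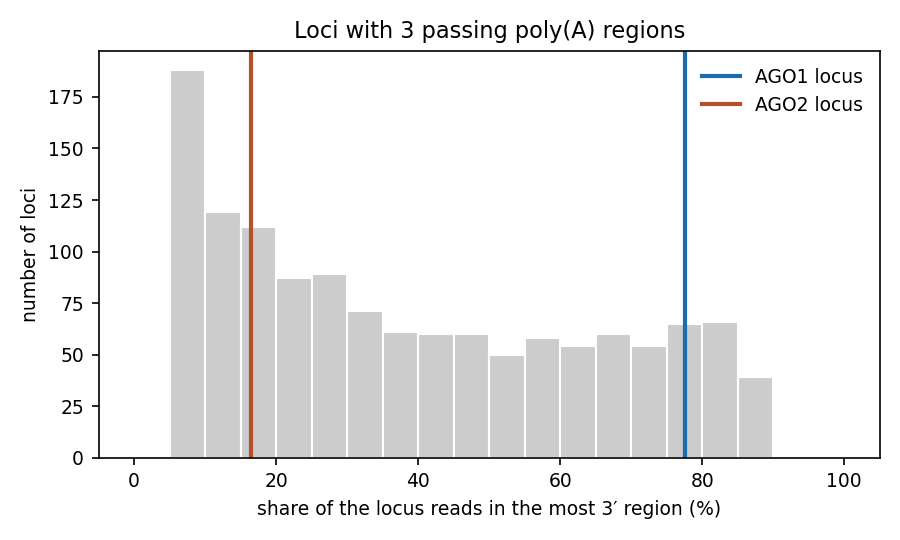
Number of loci (y axis) by the share of reads in the most 3′ region (x axis, %, pooled over libraries), for the 1293 loci with 3 passing regions joined within 5 kb and at least 100 reads. The lines mark the AGO1 locus of regions 1 to 3 at 77.5% and the AGO2 locus at 16.5%, on either side of the median of 33.7%. Joined within 10 kb, both lie above the medians of loci with as many passing regions. AGO1 is then at 25.8% against 22.5% and AGO2 at 67.6% against 31.6%. All shares are of the reads in passing regions.

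Differences between libraries were tested at every region of the table with at least 40 reads after thinning to equal depth. By a chi-square test over the 4 libraries with Benjamini-Hochberg adjustment (threshold 0.05), 34.5% of 17765 regions were called. Of the 7 Argonaute regions, 4 had enough reads, and 0 of these 4 were called. A count of 4 is too small to set against that share. At an unadjusted p under 0.05, 1 of the 4 stood out, AGO1 region 3 (chi-square p = 0.026, adjusted p = 0.071). With no minimum on thinned reads, 0 of all 7 were called, against 30.7% of all regions. On the deposited counts without thinning, 39.3% of all regions with at least 40 reads were called. All 7 Argonaute regions were tested there and AGO1 region 3 was called. With no minimum on deposited reads, its adjusted p by the same chi-square test was 0.021. AGO1 region 3 was also called on thinned counts without library 1 and without library 4, where 32.9% and 34.1% of all regions were called. In each of these 2 settings, 3 of the 7 were tested. Its lowest level was in library 2 and its highest in library 3. AGO1 regions 2 and 4 and AGO2 region 1 had adjusted p = 0.73, 0.73 and 0.99. Such a test compares these libraries, not conditions, and a p above the threshold does not show equal levels.

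The division of reads among regions was tested in the same way over 5220 loci with several regions, of which 24.8% differed between libraries. Neither Argonaute locus was called, at an adjusted p or at an unadjusted p under 0.05. A count of 2 loci is too small to set against that share. The adjusted p was 0.53 for AGO1 (regions 1 to 3) and 0.93 for AGO2. With regions joined within 10 kb, 27.0% of loci were called. All 4 AGO1 regions then entered and the adjusted p was 0.68. The AGO2 locus then held 8 regions, 5 of them past the window edge. Only 3 of the 8 passed the minimum and were tested, and the adjusted p was 0.42. Regions 2 and 3 of the AGO2 window were not among these 3.

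Just past the window edges the AGO2 strand held many more reads than the window. The next 5 minus-strand regions in the 3′ direction lay 6932 to 9763 bases past the edge, between 141530237 and 141533104. They held 1603 reads, against 316 in the window. The windows do not give the gene of these regions, and no hg19 annotation was used here to assign it. The most 3′ of them, at 141530237 to 141530277 (41 bases wide), had 252, 112, 449 and 274 reads, or 48.4, 51.8, 78.6 and 68.8 CPM. Its mean of 61.9 ± 14.3 CPM (SD, n = 4) was above the mean of each of the 7 regions in the windows. Libraries 3 and 4 were above libraries 1 and 2, and the region was called by the chi-square test (adjusted p = 3.23e-05). The same test called 34.5% of all 17765 regions tested. The region at 141533068 to 141533104 had 17.3, 18.5, 19.6 and 21.6 CPM, or 19.2 ± 1.83 CPM (SD, n = 4), close to the 18.9 CPM of the whole AGO2 window, and was not called (adjusted p = 0.33). The other 3 of these regions averaged 3.31 to 3.98 CPM and had too few reads to be tested.

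If these regions are counted with AGO2, its level becomes 91.5, 102, 130 and 119 CPM in libraries 1 to 4, or 111 ± 17.4 CPM (SD, n = 4). AGO1 then lies below AGO2 in 4 of 4 libraries, at 43.2, 33.3, 50.2 and 44.4 CPM. AGO1 minus AGO2 on the log2(CPM + 1) scale is then -1.36 ± 0.217 (SD, n = 4; exact two-sided sign-flip permutation p = 0.13, again the smallest possible). The added regions took 82.7% ± 2.92 of the reads of the lengthened window (SD, n = 4). The order of AGO1 and AGO2 is therefore set by where the AGO2 gene is taken to end. This lengthening was chosen after the values were seen, while a lengthening by 5 kb, planned earlier, added no region.

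**Figure D4:**
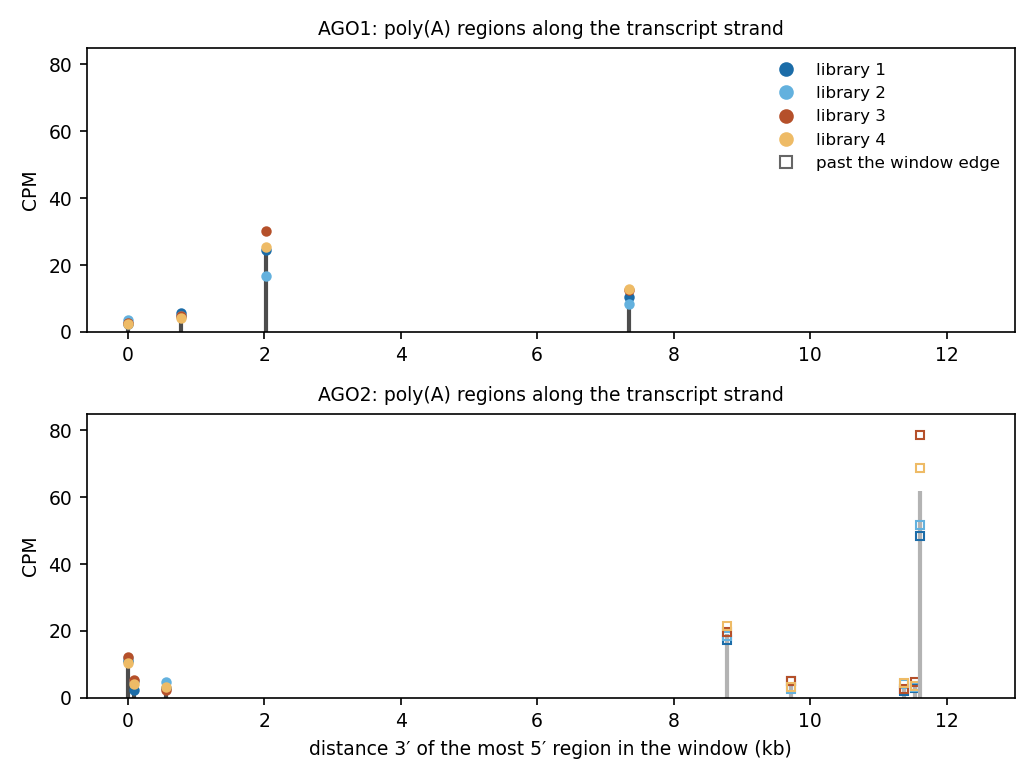
Level of each poly(A) region (CPM, y axis) against its distance 3′ of the most 5′ region of the window (kb, x axis), for AGO1 above and AGO2 below, with a bar for the mean and a point for each library. Filled circles are regions in the windows and open squares the regions past the AGO2 window edge, where the most 3′ region at 61.9 CPM on average is the highest shown.

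For AGO3, an Argonaute that like AGO2 keeps the residues of the slicer site, the nearest plus-strand regions past the window's 3′ edge lay 5771 and 14645 bases beyond it. The first, at 36528751 to 36528771, had 19, 4, 19 and 10 reads, or 3.65, 1.85, 3.33 and 2.51 CPM. The other, at 36537630 to 36537645, had 27, 5, 21 and 22 reads, or 5.18, 2.31, 3.68 and 5.52 CPM. Together they gave 7.00 ± 2.04 CPM (SD, n = 4), lower in every library than the AGO1 and AGO2 windows. Library 2 was lowest at both. The gene of either region was not assigned here.

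For AGO4, the nearest plus-strand region in the 3′ direction lay 6206 bases past the edge, at 36330202 to 36330206. It was 5 bases wide and had 36, 7, 0 and 0 reads in libraries 1 to 4. Libraries 1 and 2 thus held all of its reads, and with 3 counts as the limit that a count of 0 allows, libraries 3 and 4 could hold up to 0.525 and 0.753 CPM. In width and in its absence from libraries 3 and 4 it was unlike the 7 Argonaute regions, which were 22 to 83 bases wide and were read in all 4 libraries. On the other side of the AGO4 window, the nearest plus-strand region lay 211798 bases away.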

How the data were processed

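Poly(A) sites were sequenced in 4 libraries of 1 group. The authors deposited 1 table of unnormalized read counts, with a column for each library and the position of each region, per the file headers. Bowtie2 2.2.5 and hg19 are named in the submitters' processing notes. The forming and filtering of regions and any removal of PCR duplicates by the degenerate primer bases are not stated there, so intervals cover counting error only. Oligo(dT) can prime on internal A-rich stretches, which was not examined without the hg19 sequence. Positions are printed as deposited.

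Counts were scaled to library totals and summed over each window. Thinning to 2163977 reads used a fixed seed. Chi-square tests ran over the regions, or the loci with several passing regions, that held at least 40 thinned reads in the main setting. Expected counts came from the library totals for regions. For usage they came from the read totals of each locus by region and by library. Both tests were also run on simulated Poisson counts. Those lack the differences between library pairs seen here, so the error rate of the tests in these data was not tested. Loci join regions of a strand within 5 kb. A region passed with 10 reads and 5% of its window or locus. Shares set against those of other loci were of the reads in passing regions. Tools were Python 3.11.15, SciPy 1.17.1, and for scaling edgeR 4.0.16 and DESeq2 1.42.0 in R 4.3.3.

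The members and tests were chosen with earlier results of these data known. AGO1 to AGO4 were the genes to name, with every passing region given by library. A planned list of other small RNA pathway genes and cell line markers was not used, because the reference tables are on GRCh38 and the counts on hg19. Those tables gave no coordinates here.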

Additional observations from a re-analysis of the deposited data

Results flagged for a closer look

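Among 17 sets of library values, 3 had a library at a distance from the rest. For independent sets of equal spread, chance alone gives about 1 in 20. These libraries differ in depth and the sets share reads, so no excess over chance can be read from the 3. The share of AGO1 region 1 was 11.1% in library 2, with 5.78%, 5.23% and 5.08% in libraries 1, 3 and 4, and rested there on 8 of 72 reads. The share of AGO1 region 4 was 28.8% in library 4, with 24.4% to 25.1% in the others, all within the counting intervals of each other. The log2 ratio of AGO1 over AGO2 was 0.593 in library 2, with 1.37, 1.29 and 1.27 in libraries 1, 3 and 4.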

How the results depend on the processing

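The AGO1 level, region count and shares moved by less than 1 SD, or by less than 1.5 times for counts, under every alternative run (other scalings, minimum shares, merged ends, widths, longer windows, libraries left out, library pairs alone). With windows 10 or 15 kb longer, both chosen after seeing the data, the AGO2 level became 111 CPM. Its distal and strongest shares were both 66.4% of the reads in passing regions, and the log2 ratio of AGO1 over AGO2 turned to -1.36. The added regions make up these changes. With ends within 100 bases merged, the strongest AGO2 share was 82.6%. The ratio was positive in the other 13 alternatives, at 1.05 to 1.31 with a library left out. The number of Argonaute regions called between libraries was 0 of 4 (34.5% of all regions), 1 of 7 on deposited counts (39.3%), 0 of 7 with no minimum (30.7%), and 0 to 1 of 3 with a library left out (23.5% to 34.1%; 1 without library 1 or library 4). No alternative called usage at either Argonaute locus, where 16.1% to 37.2% of all loci were called. Joined within 1 kb, only regions 1 and 2 of AGO1 entered its test. No pairing of libraries between conditions was possible because the series has a single group. Depth limits the shares, since library 2 held 72 reads in the AGO1 window and 47 in the AGO2 window.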
